A study of Mus musculus with 12 samples.

Results

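Type I interferon-stimulated genes are the antiviral genes that cells switch on when interferon alpha or beta reaches them. Both interferons bind the receptor made of Ifnar1 and Ifnar2, the kinases Jak1 and Tyk2 then phosphorylate signal transducers, Stat2 among them, and a complex of these with Irf9 binds the interferon-stimulated response element in promoters. The products detect foreign RNA, degrade it, block its translation or trap virus particles, and in liver they are made by hepatocytes as well as by resident and incoming immune cells. The set described here is a list of 45 such genes, matched by gene symbol. All 45 were among the 50600 annotated genes of the count tables and passed the filter on low counts, which left 15219 genes for testing.

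Livers came from 3 groups of 4 libraries, every one from the strain Rosa26-LSL-dCas9-p300. In this strain a gene for catalytically dead Cas9 fused to the acetyltransferase p300 sits at Rosa26 behind a loxP-flanked stop cassette, so that its expression needs Cre. The first group received AAV carrying a gRNA against Pdx1, the second AAV carrying a control gRNA, and the third PBS with no virus. The gRNA vectors contained the Cbh promoter and were injected into the tail vein at 1e+12 viral genomes per mouse, in mice of about 8 weeks, with harvest 2 weeks after injection. Not given in the sources used here are the Cre that would remove the stop cassette, the target sequence of either gRNA, the animals' sex, any batch, and whether each library is a separate mouse. P-values therefore measure the spread between these libraries, which may be technical in part.

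Total counts per library were 13531769 to 18063529 in Pdx1 gRNA livers, 16963079 to 22008046 in control gRNA livers and 11824767 to 17870498 in PBS livers. Pdx1, the targeted gene, had 26, 32, 54 and 256 counts in the Pdx1 gRNA libraries, 0, 0, 0 and 2 in the control gRNA libraries and 0 in each PBS library. PBS libraries 2 and 3 stood apart from the other 10: scaled to total counts, they had 80.8 and 70.0 CPM (counts per 1e+06 counts) of the Y-linked Ddx3y and 2.61 and 3.64 CPM of Xist. In the remaining 10, Ddx3y was at most 0.187 CPM and Xist 692 to 1347 CPM. This male pattern occurred in PBS libraries and in no library that received AAV. The PBS comparisons of the interferon-stimulated genes are therefore also given without these 2 libraries. Those of the other gene lists and of the cell type markers below are given only with all PBS libraries.

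A promoter element was examined first. The core of the interferon-stimulated response element was searched on both strands as GAAA, any 2 bases and GAAA again, which reads TTTC, any 2 bases and TTTC on the opposite strand, in RefSeq promoter windows of GRCm38.p6 that span 250 bases before to 50 bases after the annotated start. Of the 45 genes, 34 had a window, and 17 of these (50%) held at least 1 match, against 3.99% of all 27025 genes with a window. A match before the start was found for 14 genes and a match only after the start for 3, and 7 genes had more than 1 match in a window, where matches may overlap. The following 8 stretches of 120 bases, written 5′ to 3′ on the strand of the gene, are shown because they belong to genes whose values are described below; capitals mark the bases covered by a match.
Ifit1 (chr19:34640769-34640888, plus strand): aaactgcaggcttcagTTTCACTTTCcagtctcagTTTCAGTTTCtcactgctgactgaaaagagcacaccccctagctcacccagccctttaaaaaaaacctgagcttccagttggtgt
Ifit3 (chr19:34583359-34583478, plus strand): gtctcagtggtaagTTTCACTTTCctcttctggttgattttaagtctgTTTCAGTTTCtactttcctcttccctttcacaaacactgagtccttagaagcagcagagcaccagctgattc
Ifit3b (chr19:34607755-34607874, plus strand): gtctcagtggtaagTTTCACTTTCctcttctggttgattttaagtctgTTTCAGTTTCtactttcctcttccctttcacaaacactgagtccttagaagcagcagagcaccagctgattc
Isg15 (chr4:156200819-156200938, minus strand): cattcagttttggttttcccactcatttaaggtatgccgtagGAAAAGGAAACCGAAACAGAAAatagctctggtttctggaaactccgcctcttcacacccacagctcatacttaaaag
Oas1a (chr5:120907526-120907645, minus strand): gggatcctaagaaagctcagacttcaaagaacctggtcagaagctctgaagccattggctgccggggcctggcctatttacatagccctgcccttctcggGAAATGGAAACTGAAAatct
Oas1g (chr5:120887614-120887733, minus strand): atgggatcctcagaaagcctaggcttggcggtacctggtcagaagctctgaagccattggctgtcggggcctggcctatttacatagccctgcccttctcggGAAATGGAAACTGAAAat
Rsad2 (chr12:26456483-26456602, minus strand): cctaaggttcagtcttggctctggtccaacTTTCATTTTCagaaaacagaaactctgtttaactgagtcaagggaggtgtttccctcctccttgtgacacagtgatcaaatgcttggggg
Stat2 (chr10:128270258-128270377, plus strand): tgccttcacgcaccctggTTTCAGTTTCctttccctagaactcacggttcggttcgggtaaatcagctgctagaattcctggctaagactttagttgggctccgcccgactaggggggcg

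The stretches of Ifit3 and Ifit3b were identical at 120 of 120 bases, within a shared run of 169 bases, and those of Oas1a and Oas1g shared a run of 56 bases that covers their matches. Isg15 carried 3 overlapping matches. A match is a description of the letters in the window, and binding was not measured. Among the genes of the list, 11 of 17 with a match and 10 of 17 without one were called higher in control gRNA livers than in PBS livers by the test described below. Their median log2 fold changes were 1.03 and 0.64. For Pdx1 gRNA against PBS, 5 of 17 with a match and 0 of 17 without one were called higher, and the medians were 0.47 and 0.14. For Pdx1 gRNA against control gRNA the medians were −0.77 and −0.37. Of all tested genes with a window, the list included, 433 had a match and 10571 had none. For control gRNA against PBS, 18.7% and 16.3% of these were called higher, and for Pdx1 gRNA against PBS 12% and 12.1%. Dhx58, Zbp1, Oas1b, Oas2, Usp18, Mx1, Mx2, Parp9, Parp14, Ifi27l2a and Rtp4 had no entry.

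**Figure D1:**
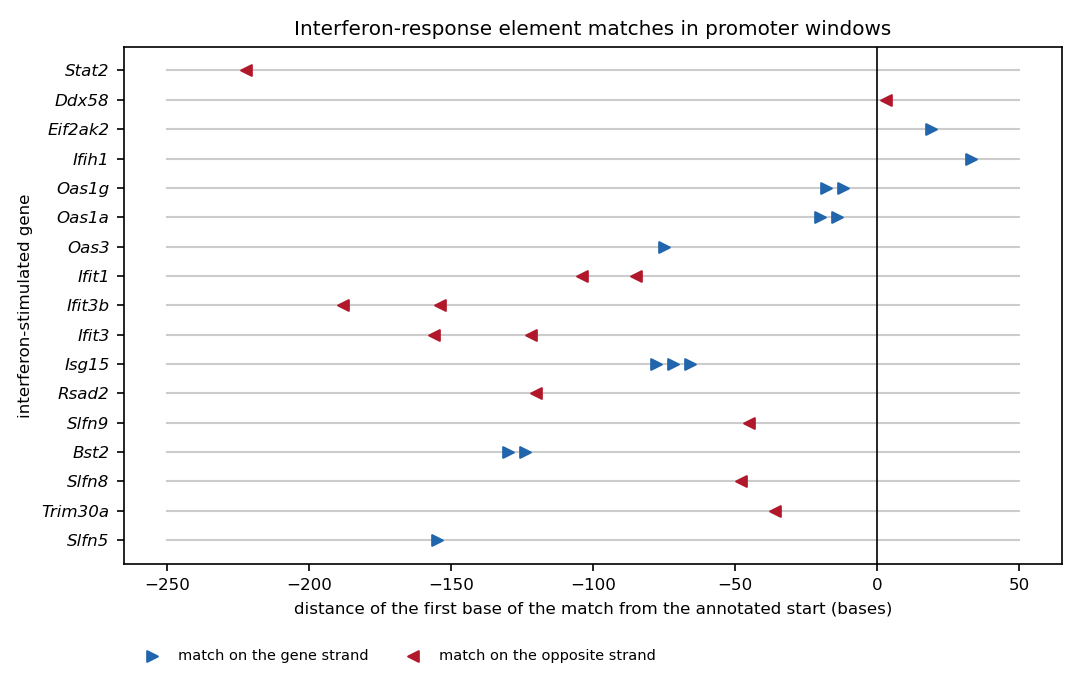
Position of each match to the interferon-stimulated response element core in the first listed promoter window of 17 genes. A further window of Slfn8 and of Trim30a, each with a match, is not drawn. The horizontal axis is the distance in bases of the match's first base from the annotated start. Right-pointing triangles are matches on the strand of the gene and left-pointing triangles matches on the opposite strand. Matches of 14 genes lie before the start, and those of Ddx58, Eif2ak2 and Ifih1 lie only after it.

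As a set, the 45 genes were highest after control gRNA, intermediate after Pdx1 gRNA and lowest after PBS. Their summed level was 1755, 1426, 1572 and 1682 CPM in the 4 Pdx1 gRNA libraries, 1766, 2248, 2328 and 2132 CPM in the control gRNA libraries and 1405, 1491, 1440 and 1518 CPM in the PBS libraries, on TMM-scaled library sizes. Bst2 weighed heavily in this sum. It averaged 312, 409 and 200 CPM after Pdx1 gRNA, control gRNA and PBS, of mean sums of 1609, 2119 and 1464 CPM. The control gRNA libraries all lay above both other groups, the lowest of them by little, and the Pdx1 gRNA and PBS ranges overlapped. Group means followed the order control gRNA, Pdx1 gRNA, PBS for 33 of the 45 genes, control gRNA, PBS, Pdx1 gRNA for 7, and PBS, control gRNA, Pdx1 gRNA for 5. In bulk liver, a change in the number of cells of a type and a change in RNA per cell cannot be told apart.

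Tests used edgeR's quasi-likelihood method with all 12 libraries in 1 model and Benjamini-Hochberg adjustment over all 15219 genes, and "called", "rose" and "fell" refer to an adjusted p under 0.05. In control gRNA livers against PBS livers, 29 of the 45 genes (64.4%) rose and 0 fell, where 16.3% of all genes were called higher and 15.8% lower. At an unadjusted p under 0.05, Dtx3l and Helz2 were lower, and DESeq2 called these 2 lower while limma-voom called 0 lower. In Pdx1 gRNA livers against PBS livers, 6 of the 45 (13.3%) rose and 0 fell, beside 11.7% of all genes called higher and 10.4% lower, so that the share of the list was close to that of all genes. These 6 were Usp18, Isg15, Slfn9, Bst2, Oas1g and Oas1a. The unadjusted p was under 0.05 for 2 lower genes, Dtx3l and Helz2, and DESeq2 called these 2 lower while limma-voom called 0 lower. In Pdx1 gRNA livers against control gRNA livers, 0 of the 45 genes were called in either direction, and 0% of all genes. The median log2 fold change of the list was −0.54 for Pdx1 gRNA against control gRNA, 0.29 for Pdx1 gRNA against PBS and 0.93 for control gRNA against PBS, where the medians over all genes were −0.01, −0.06 and −0.01. Both comparisons with control gRNA share its libraries, and both comparisons with PBS share the PBS libraries, so that their values are not independent of each other.

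**Figure D2:**
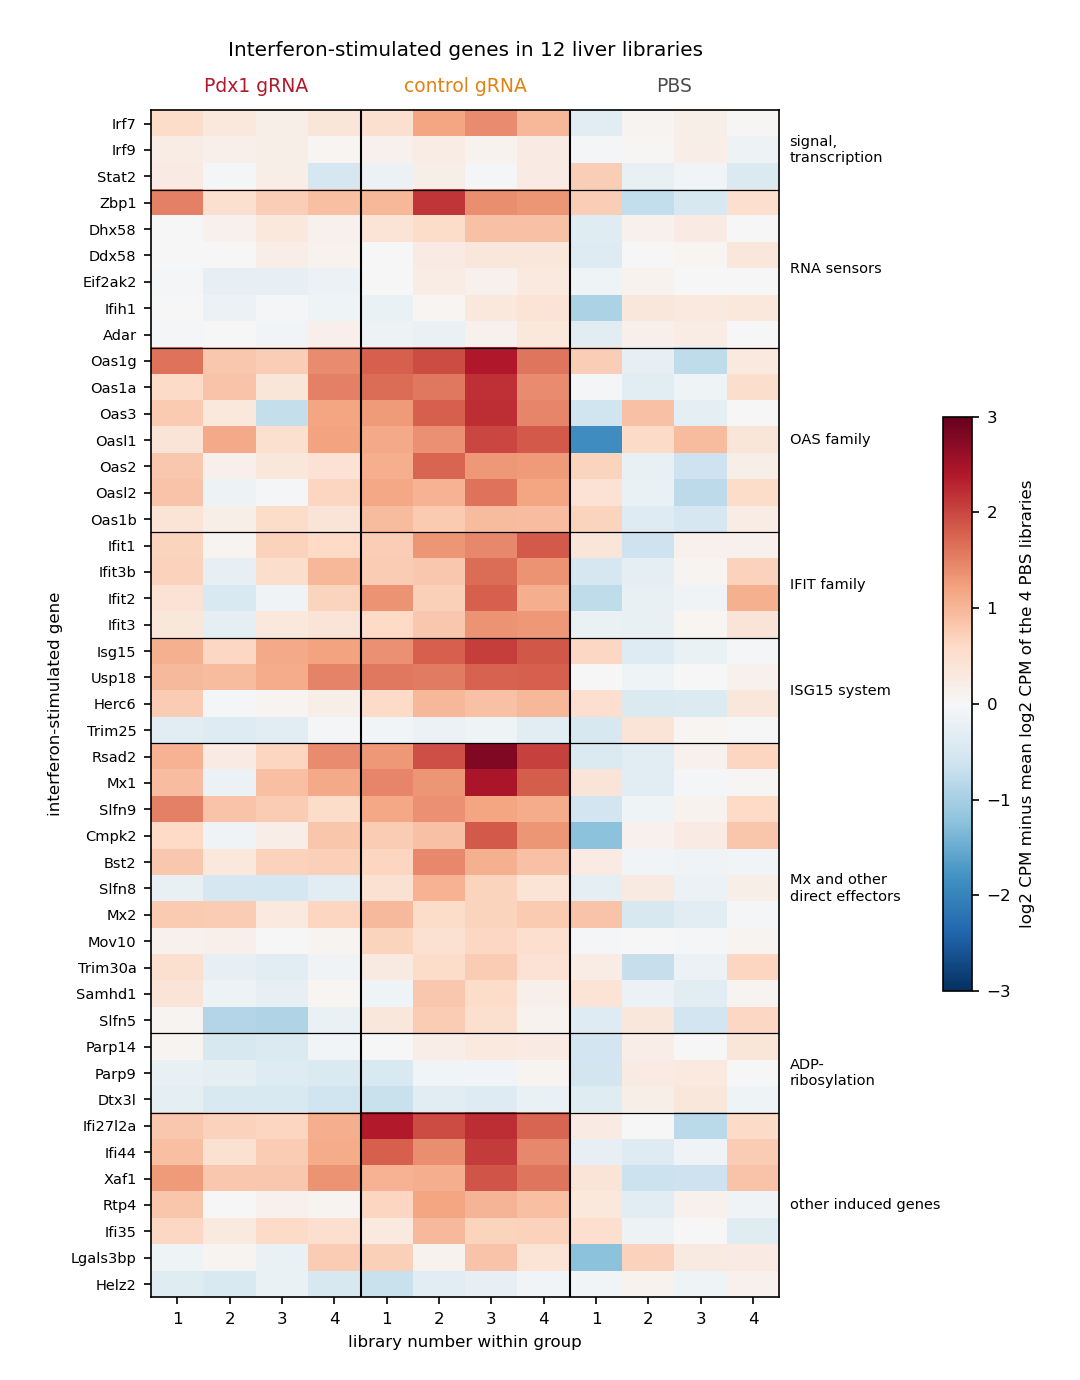
Level of the 45 interferon-stimulated genes in each of the 12 libraries, as log2 CPM minus the mean log2 CPM of the 4 PBS libraries (colour), with genes in rows grouped by role and libraries in columns. Control gRNA libraries are red in most rows of the OAS, IFIT, ISG15 and effector groups, Pdx1 gRNA libraries are paler, and the rows of Stat2, Adar, Parp9, Dtx3l and Helz2 show no such step.

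Of the transcription factors that carry the interferon signal, Irf7 rose after control gRNA while Stat2 and Irf9 were not called. Irf7, the factor that amplifies interferon production and response, had 71.5, 60.9, 55.7 and 62.8 CPM in Pdx1 gRNA livers, 69.1, 112, 132 and 97.8 CPM in control gRNA livers and 39.7, 51.8, 55.9 and 50.7 CPM in PBS livers. Every control gRNA library lay above every PBS library, and control gRNA library 1 lay within the Pdx1 gRNA range. Its log2 fold change was 1.05 ± 0.19 (SE) in control gRNA livers against PBS livers (edgeR adjusted p = 0.0017) and −0.71 ± 0.18 for Pdx1 gRNA against control gRNA (adjusted p = 0.81). Stat2, a subunit of the complex that binds the element, had 141, 115, 134 and 82.6 CPM in Pdx1 gRNA livers, 105, 134, 114 and 140 CPM in control gRNA livers and 197, 101, 111 and 88 CPM in PBS livers. The groups overlapped throughout, and its highest value was in PBS library 1. Irf9, the DNA-binding partner in that complex, averaged 52.2 ± 2.4 CPM after Pdx1 gRNA, 53.4 ± 2.46 CPM after control gRNA and 47.3 ± 4.79 CPM after PBS (SD, n = 4 each).

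Of the 6 RNA sensors and RNA-binding regulators, Dhx58 and Zbp1 rose in control gRNA livers against PBS livers, beside 16.3% of all genes called higher. Dhx58, which encodes LGP2, averaged 15 ± 1.4 CPM after Pdx1 gRNA, 21.8 ± 3.49 CPM after control gRNA and 13.7 ± 2.37 CPM after PBS (SD, n = 4 each), a log2 fold change of 0.68 ± 0.16 over PBS after control gRNA (edgeR adjusted p = 0.0082). Zbp1, a sensor of Z-form nucleic acid, averaged 19.9 ± 6.53, 29.6 ± 10.9 and 11.2 ± 5.32 CPM in the same order, with a log2 fold change of 1.39 ± 0.35 over PBS after control gRNA (edgeR adjusted p = 0.010). Ddx58, which encodes the RNA sensor RIG-I, had 39.1, 39.0, 44.0 and 41.4 CPM in Pdx1 gRNA livers, 38.9, 45.9, 48.4 and 48.9 CPM in control gRNA livers and 29.7, 38.2, 40.1 and 48.7 CPM in PBS livers. Its groups overlapped. The log2 fold changes of Ddx58, Ifih1 (the sensor MDA5), Eif2ak2 (the kinase PKR) and Adar (an adenosine deaminase acting on RNA) for control gRNA against PBS were 0.22 ± 0.15, 0.09 ± 0.24, 0.16 ± 0.11 and 0.02 ± 0.15, and none of the 4 was called. That of Adar turned negative with DESeq2's size factors.

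All 7 genes of the OAS family, whose enzymes make oligoadenylates that activate RNase L or are their inactive relatives, rose in control gRNA livers against PBS livers, and none of the 7 had overlapping groups. Their log2 fold changes ran from 0.81 to 1.85 with edgeR adjusted p-values between 0.0013 and 0.034. Of all genes, 16.3% were called higher, and 16.5% were without overlap and higher. The calls of Oas1b, Oasl1 and Oasl2 were lost in 7, 6 and 1 of 22 alternative analyses. Oas1a had 6.16, 7.52, 5.29 and 11.8 CPM in Pdx1 gRNA livers, 13.2, 12.4, 19.0 and 11 CPM in control gRNA livers and 3.96, 3.23, 3.79 and 5.94 CPM in PBS livers. Pdx1 gRNA library 4 lay inside the control gRNA range, and Pdx1 gRNA library 3 inside the PBS range. Oas1a rose in both AAV groups, with log2 fold changes of 0.86 ± 0.29 for Pdx1 gRNA against PBS (adjusted p = 0.047) and 1.71 ± 0.29 for control gRNA against PBS (adjusted p = 0.0013). Oas1g, its neighbour, had 6.01, 3.39, 3.25 and 5.23 CPM in Pdx1 gRNA livers, 6.83, 7.62, 10.3 and 5.99 CPM in control gRNA livers and 3.24, 1.62, 1.13 and 2.36 CPM in PBS livers. It rose in both AAV groups too, by 1.08 ± 0.33 (adjusted p = 0.036) and 1.85 ± 0.33 (adjusted p = 0.0020) on the log2 scale against PBS. Oasl2, an OAS-like gene, had 16.8, 8.25, 9.06 and 14.4 CPM in Pdx1 gRNA livers, 20.8, 19.0, 28.5 and 21.0 CPM in control gRNA livers and 12.5, 8.08, 5.33 and 13.5 CPM in PBS livers. Its control gRNA libraries were above all 8 others. Near-identical copies can share reads in this family, so values of Oas1a, Oas1b and Oas1g are uncertain for the single gene, and RefSeq lists Oas1b as a transcribed pseudogene.

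All 4 genes of the IFIT family, which bind viral RNA and hinder its translation, rose in control gRNA livers against PBS livers, by 1.02 to 1.34 on the log2 scale (edgeR adjusted p 0.0023 to 0.040). Of all genes, 16.3% were called higher. Ifit1 had 20.7, 13.7, 20.8 and 19.6 CPM in Pdx1 gRNA livers, 21.5, 32.8, 35.3 and 46.6 CPM in control gRNA livers and 16.8, 8.36, 14.1 and 14.2 CPM in PBS livers. Its control gRNA libraries lay above those of both other groups, which overlapped each other. Ifit3 had 25.2, 16.1, 24.9 and 25.8 CPM in Pdx1 gRNA livers, 29.8, 34.6, 50.2 and 49.1 CPM in control gRNA livers and 17.1, 16.8, 20.6 and 25.8 CPM in PBS livers, and the pattern was the same. The log2 fold changes for Pdx1 gRNA against control gRNA were −0.86 ± 0.25 for Ifit1 and −0.83 ± 0.21 for Ifit3, both with an adjusted p of 0.81. Ifit3b is so close in sequence to Ifit3 that the counts of these 2 genes are uncertain for each alone. The calls of Ifit2, Ifit3b and Ifit3 were lost in 9, 3 and 1 of the 22 alternatives tried.

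Isg15, Usp18 and Herc6 of the ISG15 system rose after control gRNA against PBS, whereas Trim25 did not. Of all genes, 16.3% were called higher, and the call of Herc6 was lost in 4 of the 22 alternatives. Isg15 encodes a ubiquitin-like protein that is attached to other proteins. It had 30.0, 21.8, 31.5 and 32.8 CPM in Pdx1 gRNA livers, 36.8, 49.8, 60.0 and 52.0 CPM in control gRNA livers and 22.0, 10.9, 12.4 and 13.8 CPM in PBS livers. The control gRNA libraries were above all others, and Pdx1 gRNA library 2 was just below PBS library 1. Isg15 rose by 0.97 ± 0.23 in Pdx1 gRNA livers (adjusted p = 0.010) and by 1.74 ± 0.23 in control gRNA livers (adjusted p = 4.0e-04) against PBS livers on the log2 scale. Usp18 encodes the protease that removes Isg15 from its targets and also damps signalling at the type I receptor. It had 23.9, 23.7, 26.4 and 34.2 CPM in Pdx1 gRNA livers, 36.6, 36.1, 41.2 and 42.2 CPM in control gRNA livers and 12.1, 11.0, 12.2 and 13.4 CPM in PBS livers. The 3 groups did not overlap at all. Usp18 had the smallest p of the list in both PBS comparisons, with 1.15 ± 0.14 for Pdx1 gRNA (adjusted p = 3.7e-04) and 1.68 ± 0.14 for control gRNA (adjusted p = 3.9e-05), folds of 2.22 and 3.20. Against control gRNA livers, its log2 fold change in Pdx1 gRNA livers was −0.53 ± 0.14 (adjusted p = 0.81). Trim25, a ubiquitin ligase that acts in RIG-I signalling, averaged 91.9 ± 10.2 CPM after Pdx1 gRNA, 98.7 ± 7.11 CPM after control gRNA and 114 ± 27.4 CPM after PBS (SD, n = 4 each).

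**Figure D3:**
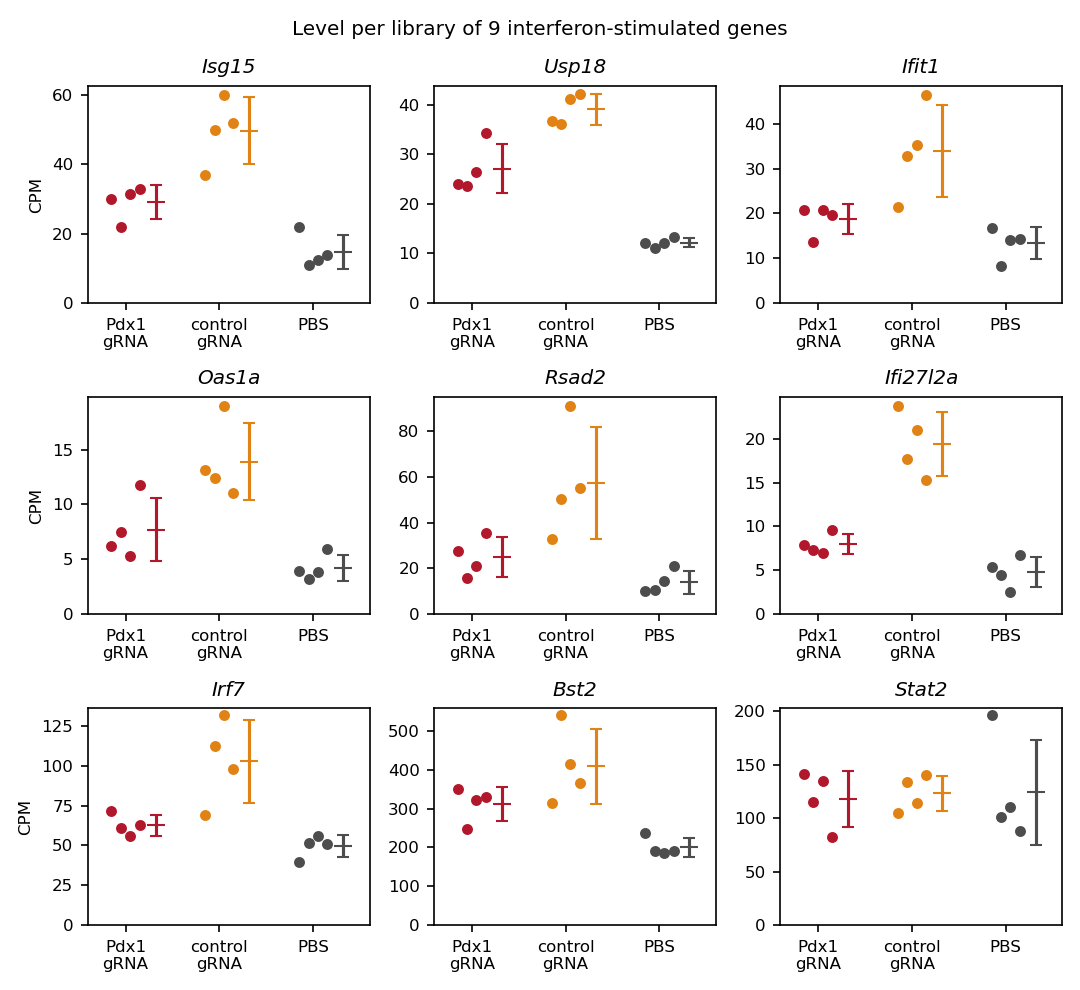
CPM on TMM-scaled library sizes of 9 interferon-stimulated genes in each library (points), with the group mean and SD (n = 4) beside the points. Usp18 shows 3 separate groups, Isg15, Ifit1 and Ifi27l2a have every control gRNA library above the rest, and the groups of Stat2 overlap.

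Of the 11 direct effectors, 7 rose in control gRNA livers against PBS livers: Mx1, Rsad2, Cmpk2, Mov10, Bst2, Slfn8 and Slfn9. Of all genes, 16.3% were called higher, and the call of Cmpk2 was lost in 8 of the 22 alternatives. Rsad2 encodes viperin, which makes a chain-terminating nucleotide, and had the largest log2 fold change of the list in that comparison, 2.05 ± 0.34 (edgeR adjusted p = 0.0013). It had 27.4, 15.8, 20.8 and 35.7 CPM in Pdx1 gRNA livers, 32.9, 50.5, 91.0 and 55.3 CPM in control gRNA livers and 9.89, 10.5, 14.4 and 20.8 CPM in PBS livers. Control gRNA library 3 was far above the rest, and Pdx1 gRNA library 4 lay within the control gRNA range. Bst2, the tetherin that holds budding virus at the cell surface, had 350, 247, 323 and 330 CPM in Pdx1 gRNA livers, 314, 541, 415 and 367 CPM in control gRNA livers and 236, 190, 186 and 190 CPM in PBS livers. All 8 AAV libraries were above all 4 PBS libraries, and the 2 AAV groups overlapped. Bst2 rose by 0.64 ± 0.19 after Pdx1 gRNA (adjusted p = 0.031) and by 1.03 ± 0.19 after control gRNA (adjusted p = 0.0023) on the log2 scale against PBS. In mouse, Bst2 is also a surface marker of plasmacytoid dendritic cells.

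The Mx genes encode GTPases that block virus replication, and RefSeq lists both Mx1 and Mx2 as transcribed pseudogenes in the reference strain. Mx1 had 5.13, 2.36, 4.99 and 5.94 CPM in Pdx1 gRNA livers, 7.39, 6.73, 14.8 and 9.48 CPM in control gRNA livers and 3.48, 2.09, 2.56 and 2.72 CPM in PBS livers, and rose after control gRNA by 1.81 ± 0.33 on the log2 scale against PBS (edgeR adjusted p = 0.0020). Mx2 had 14.3, 14, 10.0 and 12.9 CPM in Pdx1 gRNA livers, 16.0, 12.0, 13.1 and 14.2 CPM in control gRNA livers and 15, 5.89, 6.56 and 7.87 CPM in PBS livers. PBS library 1 was inside the AAV range and the other PBS libraries below it, and Mx2 was not called (0.64 ± 0.26 for control gRNA against PBS, adjusted p = 0.077). Slfn9, a Schlafen gene, had 15.3, 9.66, 9.14 and 7.82 CPM in Pdx1 gRNA livers, 12.0, 13.8, 12.2 and 11.5 CPM in control gRNA livers and 3.60, 4.85, 5.74 and 8.16 CPM in PBS livers. It rose in both AAV groups against PBS, by 0.91 ± 0.26 after Pdx1 gRNA (adjusted p = 0.026) and by 1.15 ± 0.26 after control gRNA (adjusted p = 0.0061). Its neighbour Slfn8 had its lowest group mean after Pdx1 gRNA, with a range that overlapped that of PBS. It had 2.95, 2.43, 2.42 and 2.74 CPM in Pdx1 gRNA livers, 4.81, 7.15, 5.50 and 4.6 CPM in control gRNA livers and 2.88, 4.18, 3.07 and 3.93 CPM in PBS livers. Slfn8 rose after control gRNA against PBS by 0.65 ± 0.22 (adjusted p = 0.041), a call lost in 14 of the 22 alternatives, and its log2 fold change for Pdx1 gRNA against PBS was −0.41 ± 0.23 (adjusted p = 0.21). Slfn8 and Slfn9 are related copies that may share reads. Mov10, an RNA helicase, had 40.0, 40.4, 36.2 and 38.9 CPM in Pdx1 gRNA livers, 57.9, 50.1, 55.7 and 52.0 CPM in control gRNA livers and 35.1, 36.8, 35.3 and 38.8 CPM in PBS livers. It rose after control gRNA by 0.56 ± 0.10 (adjusted p = 0.0019), a small change with little spread within each group.

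The 3 genes of the ADP-ribosylation group were not called by edgeR in any comparison with the main settings. Parp9 and Dtx3l encode partners in a complex that ubiquitinates histones and viral proteins, lie head to head and share 9.40% and 8.00% of their exon bases, so that their unstranded counts are not fully separate. Parp9 had 46.1, 44.7, 41.5 and 40.3 CPM in Pdx1 gRNA livers, 39.3, 51.1, 51.5 and 57.3 CPM in control gRNA livers and 36.9, 64.1, 66.5 and 54.6 CPM in PBS livers. Dtx3l had 48.5, 42.4, 42.3 and 38.7 CPM in Pdx1 gRNA livers, 37.0, 47.2, 45 and 50.7 CPM in control gRNA livers and 45.1, 65.8, 73.8 and 53.4 CPM in PBS livers. In both genes PBS library 1 was the lowest of its group, and the groups overlapped. Dtx3l had log2 fold changes of −0.47 ± 0.16 for Pdx1 gRNA (adjusted p = 0.053) and −0.40 ± 0.16 for control gRNA (adjusted p = 0.071) against PBS with edgeR, and DESeq2 called it lower in both. Without PBS library 1, edgeR also called Dtx3l lower in both, and Parp9 lower for Pdx1 gRNA against PBS. For Pdx1 gRNA against PBS, edgeR called Dtx3l lower with DESeq2 size factors and with a filter at 1 CPM in at least 4 libraries.

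Among the remaining induced genes, Ifi27l2a, Ifi44, Xaf1, Rtp4 and Ifi35 rose in control gRNA livers against PBS livers, and Lgals3bp and Helz2 did not. Of all genes, 16.3% were called higher, and the call of Ifi35 was lost in 7 of the 22 alternatives. Ifi27l2a, a small membrane protein gene, had 7.92, 7.30, 7.03 and 9.60 CPM in Pdx1 gRNA livers, 23.7, 17.7, 21.0 and 15.3 CPM in control gRNA livers and 5.40, 4.47, 2.56 and 6.73 CPM in PBS livers. The 3 groups did not overlap. Ifi27l2a rose after control gRNA by 2.01 ± 0.26 on the log2 scale against PBS (edgeR adjusted p = 3.4e-04), and the value for Pdx1 gRNA against PBS, 0.72 ± 0.25, was not called (adjusted p = 0.057). Ifi44 had 11.5, 8.40, 10.4 and 13.4 CPM in Pdx1 gRNA livers, 21.3, 16.1, 26.3 and 16.6 CPM in control gRNA livers and 5.16, 4.66, 5.64 and 10.3 CPM in PBS livers. It rose after control gRNA by 1.64 ± 0.26 (adjusted p = 0.0011), and for Pdx1 gRNA against PBS the value was 0.76 ± 0.26 (adjusted p = 0.055). Helz2, a helicase gene, averaged 129 ± 11.8 CPM after Pdx1 gRNA, 133 ± 21.5 CPM after control gRNA and 166 ± 14.7 CPM after PBS (SD, n = 4 each), and its 4 Pdx1 gRNA libraries were all below the 4 PBS libraries.

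Every one of the 45 genes had a log2 fold change below 0 in Pdx1 gRNA livers against control gRNA livers, from −1.28 to −0.03, where 50.9% of all genes were below 0. The level of 17 of the 45 (37.8%) was lower in each Pdx1 gRNA library than in any control gRNA library, beside 3.17% of all genes. At an unadjusted p under 0.05, 23 of the 45 were lower and 0 higher, beside 3.8% and 2.23% of all genes. The smallest adjusted p with edgeR was 0.65, limma-voom also called 0 of the 45, and DESeq2 called Ifi27l2a, Slfn8 and Mov10 lower, beside 0.0526% of all genes. With DESeq2 the log2 fold changes were −1.27 for Ifi27l2a (adjusted p = 0.0011), −1.05 for Slfn8 (adjusted p = 0.010) and −0.46 for Mov10 (adjusted p = 0.0017). By edgeR they were −1.28 ± 0.25, −1.06 ± 0.22 and −0.47 ± 0.10, close to DESeq2's estimates. The sign of Adar, Stat2 and Helz2 in this comparison turned when single libraries were left out. Cell type markers also had values away from 0 in this comparison, of which 0 were called by edgeR, DESeq2 or limma-voom. All tested markers of neutrophils (4, median log2 fold change −1.77), monocytes and macrophages (7, −0.89), T and NK cells (9, −0.87), Kupffer cells (6, −0.57), B cells (6, −0.33) and sinusoidal endothelium (5, −0.23) were below 0. Of the 4 plasmacytoid dendritic cell markers 3 were below 0 (median −0.83), and all 8 hepatocyte markers were above 0 (median 0.38). The part of these cell types in the lower values of the 45 genes was not tested. The number of genes below 0 is not a count of independent events, because the genes share their libraries and the same control gRNA group.

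**Figure D4:**
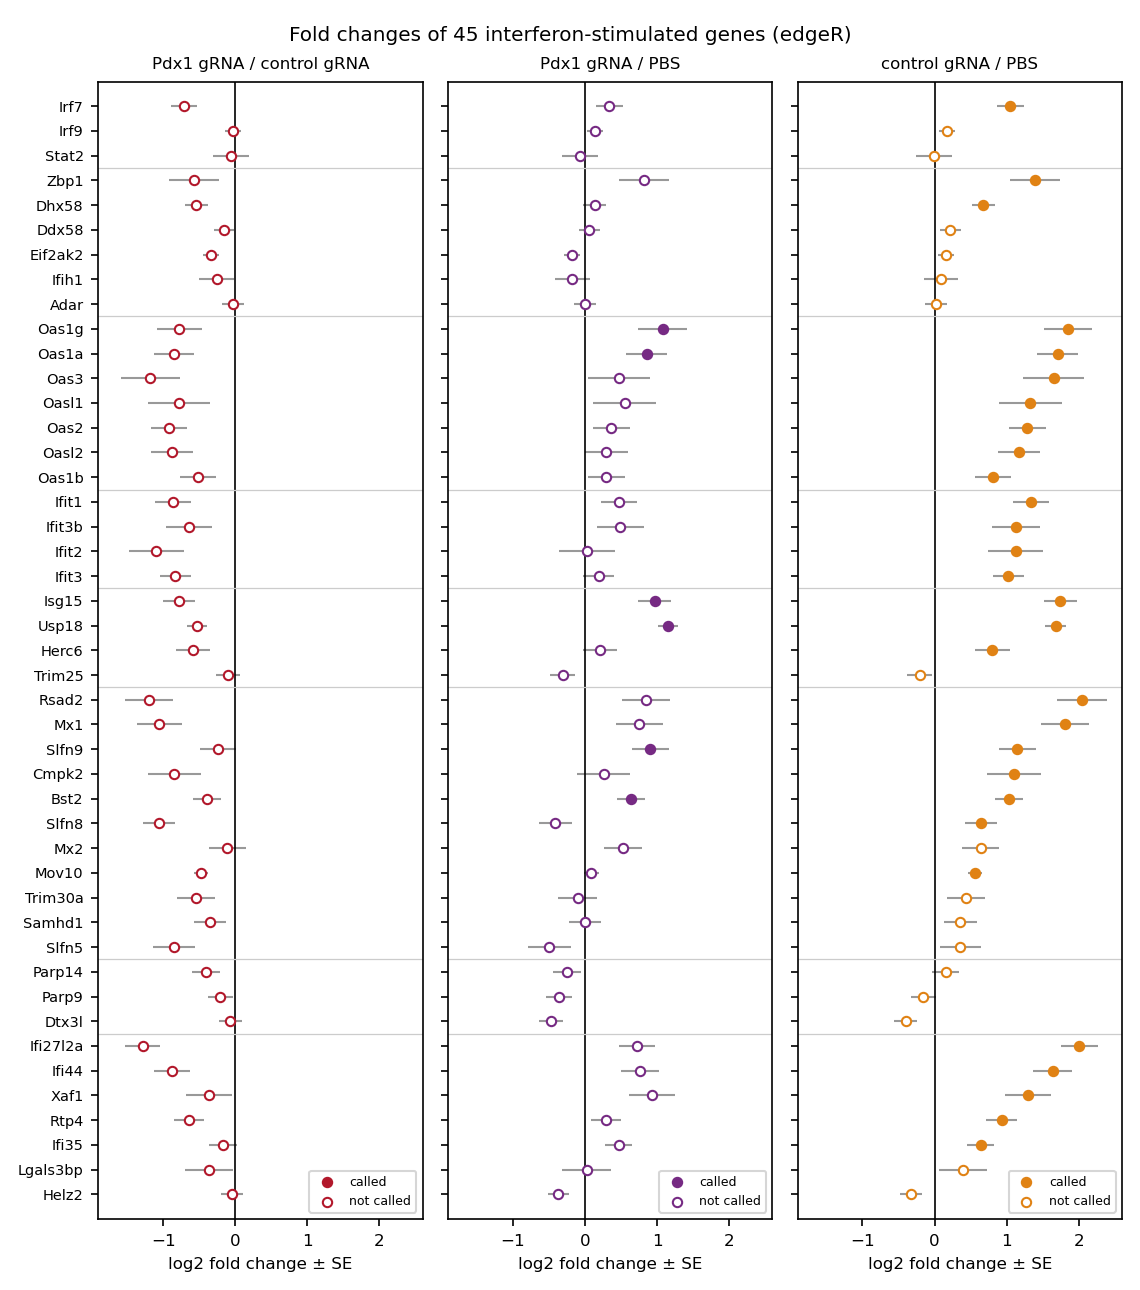
Log2 fold change from edgeR, with an SE derived from its F statistic, for the 45 interferon-stimulated genes in the 3 comparisons, with genes in rows grouped by role. Filled points were called at an adjusted p under 0.05. All 45 points lie below 0 for Pdx1 gRNA against control gRNA with 0 filled, 6 are filled for Pdx1 gRNA against PBS and 29 for control gRNA against PBS.

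Libraries of 1 group differed along the whole list. The mean over the 45 genes of the log2 level relative to the PBS mean was 0.50, 0.11, 0.21 and 0.47 in the Pdx1 gRNA libraries, 0.68, 0.89, 1.10 and 0.91 in the control gRNA libraries and −0.09, −0.08, −0.09 and 0.25 in the PBS libraries. Pdx1 gRNA library 1 was the highest of its group for 22 genes and library 2 the lowest for 22, while control gRNA library 3 was the highest of its group for 20 and library 1 the lowest for 27. Control gRNA livers against PBS livers had 26 of the 45 genes (57.8%) without overlap and higher, beside 16.5% of all genes. Pdx1 gRNA livers against PBS livers had 4 (8.89%) without overlap and higher, beside 12.7% of all genes, and 1 (Helz2) without overlap and lower, beside 8.74%.

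The number of calls moved with the PBS libraries. Without PBS libraries 2 and 3, which have the male pattern, 16 of the 29 genes remained called in control gRNA livers, beside 6.91% of all genes called higher. The 16 were Bst2, Dhx58, Ifi27l2a, Ifi44, Ifit1, Irf7, Isg15, Mov10, Mx1, Oas1a, Oas1g, Oas2, Oas3, Oasl1, Rsad2 and Usp18. In Pdx1 gRNA livers 1 gene, Usp18, remained called, beside 4.5% of all genes. The count of 6 in Pdx1 gRNA livers also moved with single libraries. The calls of Oas1a, Oas1g, Bst2, Slfn9 and Isg15 were lost in 14, 9, 8, 6 and 1 of the 22 alternatives, and that of Usp18 in 0. The count was 2 (4.44%) without PBS library 2, 2 without PBS library 3, 2 without Pdx1 gRNA library 1 and 3 (6.67%) without Pdx1 gRNA library 4. Of all genes, 14.6%, 14.5%, 17.1% and 13.6% were then called in either direction, a larger share than in the list each time. Without PBS library 1 it was 11 higher and 5 lower, beside 17.8% and 17.3% of all genes. PBS library 1 had the highest mitochondrial share of its group, 8.07% of counts, where all libraries ranged from 3.30% to 8.07%.

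Transcripts of the interferons themselves were at or near 0 counts. Of 20 interferon genes, 0 reached the filter on low counts, 15 had 0 counts in all 12 libraries, and the whole list summed to 8 counts in the Pdx1 gRNA libraries, 16 in the control gRNA libraries and 7 in the PBS libraries. Ifng made up 5, 13 and 3 of these counts, and Ifnb1, which encodes interferon beta, 1, 2 and 0. Among the receptor genes, Ifngr1, of the interferon gamma receptor, and Ifnlr1 and Il10rb, which pair as the interferon lambda receptor, rose in control gRNA livers against PBS livers. Of all genes, 16.3% were called higher and 15.8% lower there, and 11.7% and 10.4% for Pdx1 gRNA against PBS. Ifnlr1 rose on few counts: 100, 18, 65 and 27 in the control gRNA libraries and 10, 0, 0 and 5 in the PBS libraries. Ifnar2, of the type I receptor, fell in both AAV groups, by 0.58 ± 0.13 after Pdx1 gRNA (edgeR adjusted p = 0.0083) and by 0.44 ± 0.13 after control gRNA (adjusted p = 0.020) on the log2 scale against PBS. Jak2 fell after control gRNA, and Ifnar1, Jak1 and Tyk2 were not called in any comparison. Ifngr1 rose after Pdx1 gRNA as well (1.33 ± 0.24, adjusted p = 0.0030). The calls against PBS here and for the lists in the next paragraph include the male-pattern PBS libraries. Whether these calls hold without those libraries was not tested.

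Of 7 inhibitors of the pathway, Socs1 rose in control gRNA livers against PBS livers (2.23 ± 0.63, edgeR adjusted p = 0.018), at 3.24 ± 1.97 CPM against 0.668 ± 0.469 CPM (SD, n = 4 each). Of 7 other interferon regulatory factors, Irf2 fell in both AAV groups against PBS, and Irf5 fell in control gRNA livers. Of 13 sensing and adaptor genes, Mb21d1, the DNA sensor cGAS, rose after control gRNA and the adaptor Mavs fell. In these lists 1 of 7, 2 of 7 and 2 of 13 genes were called in control gRNA livers against PBS livers. Of all genes, 32.1% were called there in either direction, a larger share than in each list. In Pdx1 gRNA livers 0 of 7, 1 of 7 and 1 of 13 were called against PBS, beside 22.1% of all genes. Mavs averaged 55.5 ± 11.3 CPM after Pdx1 gRNA, 39.3 ± 8.09 CPM after control gRNA and 105 ± 29.2 CPM after PBS, with log2 fold changes of −0.92 ± 0.23 (adjusted p = 0.015) and −1.42 ± 0.24 (adjusted p = 0.0013) against PBS. Of 25 other interferon-induced genes outside the 45, 8 rose in control gRNA livers, beside 16.3% of all genes. Of these 8, Nmi, Ube2l6 and Ms4a4c rose in Pdx1 gRNA livers too. These 3 of 25 were a share close to the 11.7% of all genes called higher there. Ms4a4c had few counts, with 10, 3, 3 and 9 in the PBS libraries. Ube2l6, the conjugating enzyme for Isg15, averaged 121 ± 15.6 CPM after Pdx1 gRNA, 117 ± 18.9 CPM after control gRNA and 65.0 ± 8.16 CPM after PBS. Of 15 genes induced by interferon gamma, 7 rose in control gRNA livers, beside 16.3% of all genes: Cxcl10, Cd74, H2-Aa, H2-Ab1, Psmb9, Tap1 and Socs1. Their list had a median log2 fold change of 0.94, beside 0.93 for the 45. The part of each interferon in either list was not tested. Cxcl10 was the 1 gene of the 15 that also rose in Pdx1 gRNA livers (1.72 ± 0.40, edgeR adjusted p = 0.011), beside 11.7% of all genes. In Pdx1 gRNA livers against control gRNA livers, 0 genes of these lists were called by edgeR, DESeq2 or limma-voom. At an unadjusted p under 0.05, 2 of 10 receptor and signalling genes, 1 inhibitor, 0 other regulatory factors, 3 sensing genes, 8 of the 25 other interferon-induced genes and 4 of the 15 interferon gamma genes were lower, and 0 were higher. Of all genes, 3.8% were lower and 2.23% higher at this threshold.

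Markers of several cell types also differed between the groups. Beside them, 16.3% of all genes were called higher and 15.8% lower in control gRNA livers against PBS livers. In Pdx1 gRNA livers against PBS livers these shares were 11.7% and 10.4%. In control gRNA livers against PBS livers, 6 of 8 hepatocyte markers fell, and their summed level was 51976 to 70341 CPM in the control gRNA libraries and 90806 to 125690 CPM in the PBS libraries. In Pdx1 gRNA livers it was 51316 to 104255 CPM, and 2 of the 8 fell against PBS. Of 7 monocyte and macrophage markers, Ly6c2, Ccr2, Cd68 and Ctss rose in control gRNA livers. Their summed level was 93.9 to 224 CPM after Pdx1 gRNA, 151 to 355 CPM after control gRNA and 83.3 to 306 CPM after PBS. Ly6c2 had few counts, with 53, 56, 55 and 23 in the control gRNA libraries and 14, 1, 0 and 10 in the PBS libraries. Of 4 plasmacytoid dendritic cell markers Cd300c rose in control gRNA livers, on few counts: 14, 12, 13 and 14 there and 6, 0, 0 and 1 in the PBS libraries. The list summed to 2.64 to 6.15 CPM after Pdx1 gRNA, 6.65 to 7.98 CPM after control gRNA and 1.81 to 7.19 CPM after PBS. PBS library 1 was the library at 7.19 CPM, and the other 3 PBS libraries were at most 2.29 CPM.

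T and NK cell markers summed to 3.63 to 12.5 CPM in Pdx1 gRNA livers, 12.1 to 20.7 CPM in control gRNA livers and 6.25 to 11.7 CPM in PBS livers. Of 9 tested, 1 (Cd8a) rose after control gRNA against PBS, a smaller share than the 16.3% of all genes called higher. Neutrophil markers summed to 4.37 to 7.0 CPM, 11 to 16.3 CPM and 3.48 to 15.9 CPM in the same order. None of the 4 tested neutrophil markers, 6 Kupffer cell markers and 6 B cell markers was called in any comparison by edgeR, DESeq2 or limma-voom. At an unadjusted p under 0.05, the 4 neutrophil markers, 2 of 7 monocyte and macrophage markers and 2 of 9 T and NK cell markers were lower in Pdx1 gRNA livers than in control gRNA livers, and 0 of the other marker lists. Of all genes, 3.8% were lower at this threshold. Kupffer cell markers summed to 145 to 467 CPM after Pdx1 gRNA, 148 to 656 CPM after control gRNA and 106 to 511 CPM after PBS, and B cell markers to 9.58 to 19.3, 8.84 to 33.7 and 7.22 to 27.3 CPM. Of 5 sinusoidal endothelial markers, Stab2, Kdr and Pecam1 fell in Pdx1 gRNA livers, and Stab2 and Kdr in control gRNA livers, against PBS livers. Their sum was 64.6 to 123 CPM after Pdx1 gRNA, 77.7 to 151 CPM after control gRNA and 126 to 345 CPM after PBS. The marker calls against PBS include the male-pattern PBS libraries, and whether the calls hold without those libraries was not tested. The part of these cell types in the levels of the interferon-stimulated genes was not tested.

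**Figure D5:**
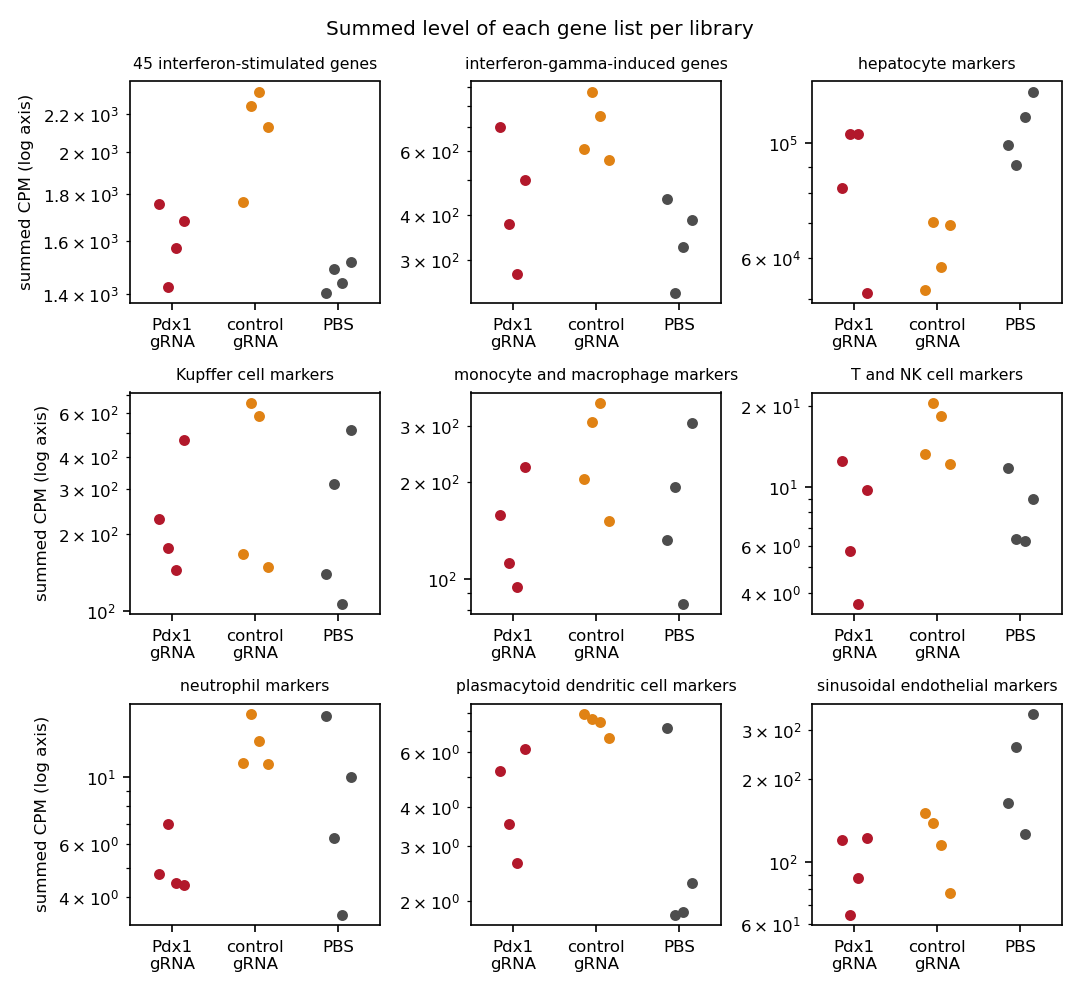
Summed CPM of the 45 interferon-stimulated genes, of the genes induced by interferon gamma and of 7 cell type marker lists in each library (points, logarithmic vertical axes that differ between panels). The interferon-stimulated genes have all control gRNA libraries on top, at 1766 to 2328 CPM, and the hepatocyte markers of 3 Pdx1 gRNA libraries and all PBS libraries lie above those of all control gRNA libraries.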

How the data were processed

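Polyadenylated RNA of snap-frozen liver had been sequenced in 12 libraries, 4 in each of 3 groups, and was analysed as deposited counts per gene. Per the file headers, fragments were counted with featureCounts 1.4.6-p4 against GENCODE M13, without regard to strand, and the deposited values are whole-number counts with no normalization. Per the submitters' processing notes, tools were Trimmomatic 0.32, STAR 2.4.1a, Subread, DESeq2 1.22.0 and R 3.5.1 with builds GRCm38 and mm10. From here, symbols were matched by gene ID (50376 of 50600). Genes were filtered with filterByExpr (minimum count 10), scaled by TMM and tested in edgeR 4.0.16 (R 4.3.3), two-sided, with a group factor and no covariate. The SE of an edgeR log2 fold change was derived as its absolute value divided by the square root of the quasi-likelihood F statistic. Levels are CPM on TMM-scaled library sizes. Pairs of libraries differed beyond counting error in all 66 cases, with a chi-square per degree of freedom of at least 21.5, so every library was kept as its own sample. The script was tested on simulated data with known changes.

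Alternatives were other size factors, filters and dispersion settings, DESeq2 1.42.0, limma-voom (limma 3.58.1), a fit of only the 8 libraries under comparison, a block for the number in the label, the omission of single libraries, and the omission of PBS libraries 2 and 3. Levels in every library are printed for the 5 genes of the list with the smallest p in each comparison and for 15 chosen by role. The genes of the list, the pathway and marker lists and the tests were chosen with earlier results of these data known. Promoter sequences are from RefSeq (GRCm38.p6), and coordinates are 1-based. One gene of the pathway lists is not reported here.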

Additional observations from a re-analysis of the deposited data

Results flagged for a closer look

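Among 135 groups of 4 libraries, 1 for each of the 45 genes in each of the 3 groups, 5 had a library set apart from the other 3 by Dixon's test, which marks about 1 group in 20 by chance. Rtp4, a chaperone of G protein-coupled receptors, was at 32.5 CPM in Pdx1 gRNA library 1 and at 18.4 to 19.7 CPM in the others of that group. Ifit3 was at 16.1 CPM in Pdx1 gRNA library 2, against 24.9 to 25.8 CPM in the other 3. Oas1b was at 5.79 CPM in control gRNA library 2, a small step below the 6.43 to 6.54 CPM of the rest. In PBS library 1, Ifih1 was at 22.0 CPM, where the other PBS libraries had 52.2 to 53.5 CPM, and Bst2 was at 236 CPM, where they had 186 to 190 CPM.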

How the results depend on the processing

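The median log2 fold change of the 45 genes kept its sign in all 3 comparisons under all 22 alternatives. Leaving out 1 library at a time gave −0.65 to −0.45 for Pdx1 gRNA against control gRNA, 0.18 to 0.36 for Pdx1 gRNA against PBS and 0.82 to 1.00 for control gRNA against PBS. The same omissions gave 0 genes of the list higher and 0 lower in Pdx1 gRNA against control gRNA, with 0 to 1 of all genes called. In Pdx1 gRNA against PBS they gave 2 to 11 of the list higher, 0 to 5 lower and 2132 to 5421 of all genes called, and in control gRNA against PBS 22 to 28 higher, 0 to 2 lower and 3445 to 6875 of all genes. The highest counts of both PBS comparisons came without PBS library 1.

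Without PBS libraries 2 and 3, 1 gene of the list was higher in Pdx1 gRNA livers and 16 in control gRNA livers against PBS, with 1277 and 2258 of all genes called. The log2 fold change of Oasl2 for Pdx1 gRNA against PBS was then −0.11, and for control gRNA against PBS that of Trim25 was 0.0093 and that of Parp9 0.097. DESeq2 called 3 genes of the list lower and 14 of all genes in Pdx1 gRNA against control gRNA, and 2 of the list lower in each PBS comparison. With only the 8 libraries compared, 1 gene was called in Pdx1 gRNA against control gRNA, and in Pdx1 gRNA against PBS 3 of the list were higher and 2017 of all genes called. With DESeq2 size factors, and with the filter at 1 CPM in at least 4 libraries, 1 gene of the list, Dtx3l, was lower in Pdx1 gRNA against PBS.

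The replicate number as a block gave 0 genes of the list called in Pdx1 gRNA against control gRNA, 4 higher in Pdx1 gRNA against PBS (2 of them among the 6) and 29 higher in control gRNA against PBS (28 of them among the 29). Of all genes, 0%, 16.8% and 27.1% were then called in either direction, beside 0%, 8.89% and 64.4% of the list. The numbers were not taken to pair libraries: 3 of 12 pairs with the same number correlated above 0.1, from −0.42 to 0.21, and 2 of 12 libraries correlated best with their own number.

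Other signs also turned. For control gRNA against PBS, Stat2 was at 0.078 with upper-quartile factors, 0.077 with limma-voom, 0.048 with no filter and 0.069 with the replicate block, and −0.14 to 0.30 with single libraries left out. Adar was at −0.0046 with DESeq2 size factors, −0.0026 with DESeq2 and −0.083 to 0.092 with single libraries left out. Single libraries also moved Ifih1 from −0.15 to 0.17 and Parp14 from −0.0063 to 0.28 in this comparison. For Pdx1 gRNA against PBS they moved Stat2 from −0.20 to 0.24 and Ddx58 from −0.052 to 0.19, and for Pdx1 gRNA against control gRNA Stat2 from −0.15 to 0.080, Adar from −0.094 to 0.076 and Helz2 from −0.13 to 0.042. The cause of these changes was not tested. The 20 interferon genes, with 8 counts in all in Pdx1 gRNA livers, 16 in control gRNA livers and 7 in PBS livers, were below the filter at this depth and were not tested.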

Other observations

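Levels divided by exon length allow the genes to be compared with each other. In CPM per kb of exon, Bst2 was the highest of the 45 in every group, at 346 in Pdx1 gRNA livers, 453 in control gRNA livers and 222 in PBS livers. Isg15 averaged 38.4, 65.7 and 19.6 CPM per kb and Lgals3bp, a secreted glycoprotein, 27.4, 35.3 and 26.9 CPM per kb in the same order. Oas3 was the lowest in each group, at 0.341, 0.782 and 0.251 CPM per kb. Isg15 ranked below Lgals3bp, Stat2 and Trim25 in PBS livers and above all 3 in control gRNA livers.

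The 45 genes lie on 14 chromosomes, and 23 of them form 8 clusters in which neighbours are within 1 Mb. In control gRNA livers against PBS livers, all 5 genes of the Oas cluster on chromosome 5, spanning 177.2 kb, and all 4 genes of the Ifit cluster on chromosome 19, spanning 99.3 kb, were called higher. Rsad2 and Cmpk2, neighbours on chromosome 12, were both called. Of all genes, 16.3% were called higher in this comparison. Without PBS libraries 2 and 3, the calls of Oas1b, Ifit2, Ifit3, Ifit3b and Cmpk2 were lost. In the cluster of Parp14, Dtx3l and Parp9 on chromosome 16, spanning 139.7 kb, 0 of 3 were called by edgeR with the main settings, and in the Mx cluster on the same chromosome 1 of 2. Whether neighbours share control was not tested.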
